A study of Mus musculus with 18 samples.

Results

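The miR-183 cluster, which holds miR-183, miR-96 and miR-182, was followed through mmu-miR-182-5p, mmu-miR-183-5p and mmu-miR-96-5p, the 5p arms of its 3 hairpins, which were picked by name, with earlier results of these data known. They are 3 of the 1251 microRNA entries measured in the series. The hairpins are cut from a common primary transcript, and each yields a mature strand of about the same length that guides Argonaute to mRNAs paired with its seed, the bases near the 5′ end. The cluster is best known from sensory organs such as the inner ear and the retina, where a change in the miR-96 seed causes hearing loss, and its members are raised in many carcinomas. Reported targets shared by its members include FOXO1, a transcription factor that restrains proliferation.

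The data were 18 small RNA libraries from 6 female littermates of the SKH1-E Hairless strain, numbered mouse 2, 3, 7, 8, 9 and 10. Each adult mouse had been exposed to chronic UVB from a solar simulator and gave 1 library of nonlesional, chronically UV-exposed skin (CHR), 1 of papilloma (PAP) and 1 of cutaneous squamous cell carcinoma (cuSCC), so that n = 6 for each sample type. All sample types, CHR included, therefore come from irradiated Hairless mice, and CHR is not untreated skin. The tissues were profiled in bulk, so that more cells of a type and more microRNA per cell cannot be told apart.

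The mature sequences are shown first because the members resemble each other where targets are read. They are written 5′ to 3′ as RefSeq gives them for GRCm38.p6, with the seed, bases 2 to 8, in capitals.
miR-182-5p: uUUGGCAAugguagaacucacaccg
miR-96-5p: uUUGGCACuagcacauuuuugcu
miR-183-5p: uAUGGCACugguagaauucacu
Counting from 1 at the 5′ end and writing the base of miR-96-5p first, the first 8 bases of miR-182-5p differ from it by C8A and those of miR-183-5p by U2A. miR-182-5p and miR-183-5p differ from each other by U2A and A8C, with the base of miR-182-5p first, and carry the same stretch UGGUAGAA at bases 9 to 16. Over their first 22 bases these 2 arms are equal at 18 positions without gaps, whereas miR-96-5p equals miR-182-5p at 12 of 23 and miR-183-5p at 13 of 22. Among the 1679 mature names of RefSeq, miR-1271-5p was the only microRNA outside the cluster with the miR-96-5p seed, and it was not analysed here.

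All 3 hairpins lie on the minus strand of chromosome 6 in GRCm38, at chr6:30169668-30169737 for Mir183, chr6:30169446-30169551 for Mir96 and chr6:30165918-30165992 for Mir182. In the direction of transcription Mir183 comes first, Mir96 follows after 116 bases and Mir182 after a further 3453 bases. RefSeq places all 3 within the span of Mirc35hg, a long non-coding RNA gene at chr6:30158640-30174125, whose 5′ end lies 4388 bases upstream of Mir183. The protein-coding neighbours are Nrf1 and Ube2h. The expression values carry no coordinates, and these positions serve only to place the hairpins.

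**Figure D1:**
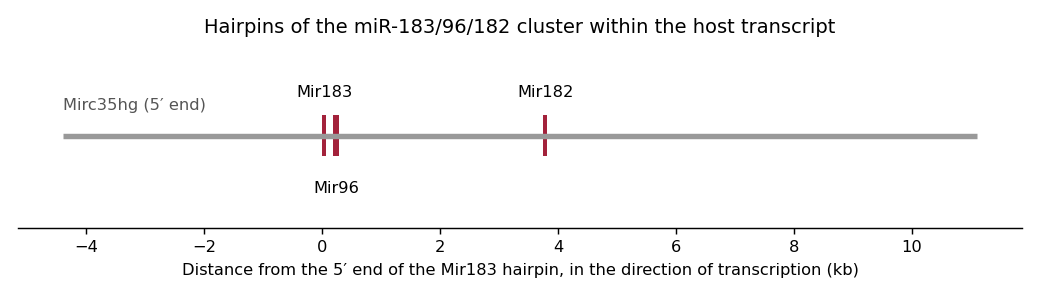
Positions of the 3 hairpins (red blocks, to scale) along the span of Mirc35hg (grey line), as distance in kb from the 5′ end of the Mir183 hairpin in the direction of transcription. Mir183 and Mir96 lie 116 bases apart, and Mir182 lies 3453 bases beyond Mir96.

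Levels are log2 values of ppm (parts of the usable reads), quantile normalized between libraries before deposit, so that a value mostly records the rank of a microRNA in its library. The lowest value, 3.32 on this scale and 10 in ppm, was taken to mean that a microRNA was not detected. The lowest level of a detected microRNA differed between libraries, with ranges of 3.39 to 5.77 for CHR, 3.71 to 6.83 for PAP and 3.32 to 4.50 for cuSCC. Read totals per library are not among the values used here, so sequencing depth per library is unknown. The 293 microRNAs detected in at least 6 libraries were tested with limma, and a difference passed where its Benjamini-Hochberg adjusted p over all 293 was under 0.05. miR-205-5p and miR-203-3p, which mark keratinocytes, were detected in all 18 libraries and miR-205-5p averaged 17.87 in CHR, 18.22 in PAP and 18.08 in cuSCC.

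The members differed widely in abundance. miR-182-5p stood above miR-183-5p, and miR-183-5p above miR-96-5p, in 18 of 18 libraries. miR-182-5p and miR-183-5p were detected in all 18 libraries and miR-96-5p in 7. On the opposite strands of the hairpins, miR-183-3p was detected in 13 libraries, and miR-182-3p and miR-96-3p were at the lowest value throughout. Levels of different microRNAs also depend on how well each sequence is captured in library preparation, so this order is one of measured values.

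miR-182-5p, the most abundant member, was higher in both lesions than in CHR. In CHR it lay between 14.33 and 15.14 with a median of 15.14, in PAP between 16.15 and 17.37 with a median of 16.80, and in cuSCC between 15.69 and 16.99 with a median of 16.80. Every PAP and every cuSCC library was thus above every CHR library, and both lesions were above CHR in 6 of 6 mice. Its place among the 1251 entries, counted from the most abundant, was 16 to 22 for CHR, 4 to 9 for PAP and 5 to 12 for cuSCC.
Against CHR its log2 level was higher by 1.76 in PAP (standard error 0.26, limma adjusted p = 0.000292), a 3.38-fold difference with a 95% interval of 2.28 to 5.02. In cuSCC it was higher by 1.59 (standard error 0.29, limma adjusted p = 0.000747), or 3.0-fold with an interval of 1.96 to 4.60. Of all microRNAs tested, 32.4% passed between PAP and CHR, 14% as higher in PAP, and 6.48% had every PAP library above every CHR library. Between cuSCC and CHR 42.3% passed, 20.1% as higher, and 9.9% had every cuSCC library above every CHR library. The rise of miR-182-5p ranked at place 24 of 293 in PAP and 35 of 293 in cuSCC.
PAP and cuSCC were not told apart by miR-182-5p. The difference on the log2 scale was -0.17 (95% interval -0.82 to 0.48, limma adjusted p = 0.759), with cuSCC above PAP in 3 of 6 mice and below it in 3.

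Because the values are close to ranks, the entries that miR-182-5p overtook were also read, a step chosen after its values were seen. The 11 entries above it in all 6 CHR libraries include miR-486-5p and miR-3107-5p, whose means were equal in each sample type. Of these 11 entries, 2 were below miR-182-5p in all 6 PAP and all 6 cuSCC libraries. These were miR-133a-3p, a skeletal muscle microRNA that averaged 15.63 in CHR, 5.59 in PAP and 12.41 in cuSCC, and miR-30d-5p, which averaged 15.99, 15.76 and 15.60. The PAP mean of miR-133a-3p includes 3 libraries at the lowest value. The keratinocyte miR-205-5p was the single entry above miR-182-5p in all 18 libraries.
Taken relative to miR-205-5p in the same library, a comparison also chosen afterwards, the rise of miR-182-5p over CHR was 1.41 in PAP (limma adjusted p = 0.0127) and 1.37 in cuSCC (adjusted p of the same test 0.0174). Relative to the other keratinocyte microRNA, miR-203-3p, its rise was 1.92 in PAP (limma adjusted p = 0.0105), but the difference of 1.08 in cuSCC did not pass (limma adjusted p = 0.152).

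**Figure D2:**
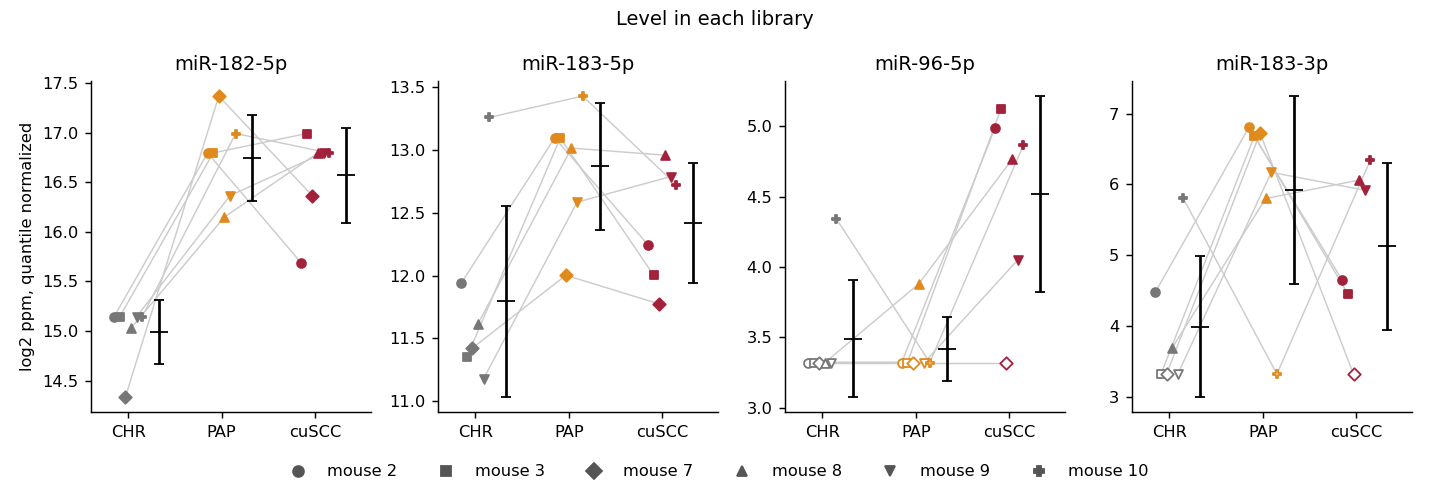
Level of the 3 members and of miR-183-3p in each library, in log2 ppm after quantile normalization, with grey lines joining the samples of a mouse, open symbols for libraries at the lowest value of 3.32, and bars for the mean ± SD of n = 6 beside each type. Each panel has its own vertical range that does not start at 0. miR-182-5p separates CHR from both lesions, the CHR of mouse 10 stands high for the other 3, and miR-96-5p is detected mainly in cuSCC.

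miR-183-5p showed a smaller difference, and the types overlapped. It lay between 11.18 and 13.26 in CHR with a median of 11.52, between 12.002 and 13.43 in PAP with a median of 13.06, and between 11.77 and 12.96 in cuSCC with a median of 12.48. PAP was above CHR in 6 of 6 mice and cuSCC above CHR in 5 of 6, but 1 PAP library and 0 cuSCC libraries exceeded the highest CHR library. That library was the CHR of mouse 10, at 13.26, whereas the other 5 CHR libraries lay at or below 11.94.
In PAP miR-183-5p was higher than in CHR by 1.08 (standard error 0.37, limma adjusted p = 0.0441), a 2.11-fold difference. This passed narrowly, and with a single mouse left out it ranged from 0.94 to 1.26 and its call was lost when mouse 2, 3, 7, 8 or 9 was the one omitted (limma adjusted p at most 0.153). In cuSCC the difference from CHR, 0.62, did not pass (95% interval -0.17 to 1.42, limma adjusted p = 0.195). Without the CHR of mouse 10 it was 0.91 and passed (limma adjusted p = 0.0288), and the difference in PAP was 1.37 (limma adjusted p = 0.00455). Omitting the highest CHR library can only raise these differences, so both are descriptions and no support for a rise.
Between cuSCC and PAP miR-183-5p differed by -0.46 (95% interval -1.13 to 0.22, limma adjusted p = 0.348) and was lower in cuSCC in 5 of 6 mice. Relative to miR-205-5p, its difference of 0.73 in PAP did not pass (limma adjusted p = 0.268).

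The distance between miR-182-5p and miR-183-5p, which come from the same transcript, varied between libraries. With all mice, its differences between sample types did not pass. miR-182-5p minus miR-183-5p in the same library was 3.19 ± 0.75 in CHR (SD, n = 6), 3.88 ± 0.77 in PAP and 4.16 ± 0.55 in cuSCC. The distance was smallest in the CHR of mouse 10, at 1.88, and largest in the PAP of mouse 7, at 5.37, where miR-182-5p was the highest and miR-183-5p the lowest of all PAP libraries. It was larger in cuSCC than in CHR by 0.96, which did not pass after adjustment over 3 comparisons (exact permutation test, two-sided, p = 0.0173, adjusted p = 0.0519). Within mice it was larger in cuSCC than in CHR in 6 of 6, by 0.05 to 2.19, and the paired sign-flip test gave an exact p of 0.0312, the smallest that 6 mice allow, and an adjusted p of 0.0938. Between PAP and CHR it differed by 0.68 with 3 mice in each direction (exact permutation adjusted p = 0.25) and between cuSCC and PAP by 0.28 with 4 of 6 mice higher in cuSCC (exact permutation adjusted p = 0.483). Across the 18 libraries, which share 3 sample types and 6 mice, the levels of these arms correlated at r = 0.56, and at r = 0.09 once each sample type was set to its own mean.

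**Figure D3:**
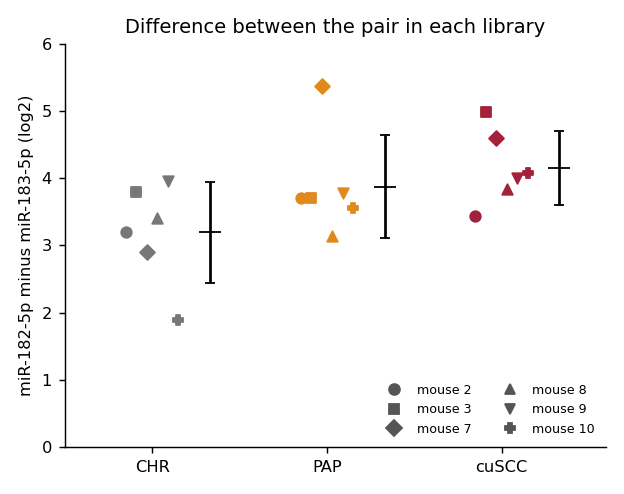
Level of miR-182-5p minus that of miR-183-5p in each library on the log2 scale, by sample type, with bars for the mean ± SD of n = 6 and a symbol for each mouse. CHR libraries span 1.88 to 3.96, PAP libraries 3.14 to 5.37 and cuSCC libraries 3.44 to 4.99, so the types overlap.

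miR-96-5p was close to the limit of detection. It was above the lowest value in 1 of 6 CHR libraries (mouse 10, 4.34), 1 of 6 PAP libraries (mouse 8, 3.88) and 5 of 6 cuSCC libraries, where it reached 4.05 to 5.12 and was missing in mouse 7. Its highest level lies far below the lowest level of miR-183-5p. With only 2 detections outside cuSCC, it reached the 6 libraries that the filter asks for through the type in which it was high. A higher level in cuSCC was therefore set by the filter, and the fitted differences that follow are descriptions from which no difference is read.
The fitted level in cuSCC exceeded that in CHR by 1.03 (standard error 0.35, limma adjusted p = 0.0296) and that in PAP by 1.10 (standard error 0.32, limma adjusted p = 0.0422), with 11.6% of the tested microRNAs passing between cuSCC and PAP and 9.22% as higher in cuSCC. Between PAP and CHR it differed by -0.08 (95% interval -0.61 to 0.45, limma adjusted p = 0.837).
The limma adjusted p against CHR was above 0.05 when mouse 2, 3 or 8 was omitted (differences of 0.87 to 0.94), and that against PAP when any mouse was omitted.
Limits of detection moved with these differences. In 4 of the 5 PAP libraries without miR-96-5p, and in 1 of the 5 CHR libraries, no detected microRNA lay as low as 5.12, the highest level of miR-96-5p. When each undetected value was instead given the lowest level detected in its library, the difference between cuSCC and CHR was 0.28 (limma adjusted p = 0.625), and that between cuSCC and PAP was -0.96 (limma adjusted p = 0.166). When the samples were paired, by a replicate block for each mouse, the difference between cuSCC and PAP did not pass either (limma adjusted p = 0.0735). Among libraries whose lowest detected level lay under 3.88, the lowest level at which miR-96-5p was seen, it was detected in 1 of 4 CHR, 1 of 1 PAP and 3 of 4 cuSCC libraries. The cut of 3.88 is the level in that PAP library itself, so the 1 of 1 was set by the cut.

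The opposite strand miR-183-3p had medians in the same order as miR-183-5p, lowest in CHR and highest in PAP, at a level close to the limit of detection. In mouse 10 the step from CHR to PAP was -2.48 for miR-183-3p against 0.17 for miR-183-5p. Its levels in the CHR of mouse 8, 3.69, and the PAP of mouse 7, 6.72, were the lowest detected in those libraries. miR-183-3p lay between 3.32 and 5.80 in CHR (median 3.51), 3.32 and 6.80 in PAP (median 6.43) and 3.32 and 6.34 in cuSCC (median 5.28). It was detected in 3 CHR, 5 PAP and 5 cuSCC libraries, and the PAP without it was that of mouse 10, whose library held no detected level under 6.83. Its difference from CHR was 1.93 in PAP (standard error 0.63, limma adjusted p = 0.0356), which did not pass when samples were paired (replicate block, limma adjusted p = 0.0975) or when mouse 2, 3, 7, 8 or 9 was omitted, where it was 1.63 to 1.89. The difference in cuSCC, 1.13, did not pass (limma adjusted p = 0.12), whereas it was 1.496 and passed when the CHR of mouse 10 was omitted (limma adjusted p = 0.0363). That omission removes the highest CHR value and can only raise the difference, so it is a description. miR-183-3p stood at 5.80 for CHR in mouse 10, the highest of the CHR libraries, as were miR-183-5p and miR-96-5p. miR-182-5p was at 15.14 there, as in 3 other CHR libraries. That library held the most detected entries of the CHR libraries, 328 of 1251, and the lowest summed level of the epithelial microRNAs listed next, at 17.50 against 17.75 to 18.51. The part of either in its values was not tested.

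**Figure D4:**
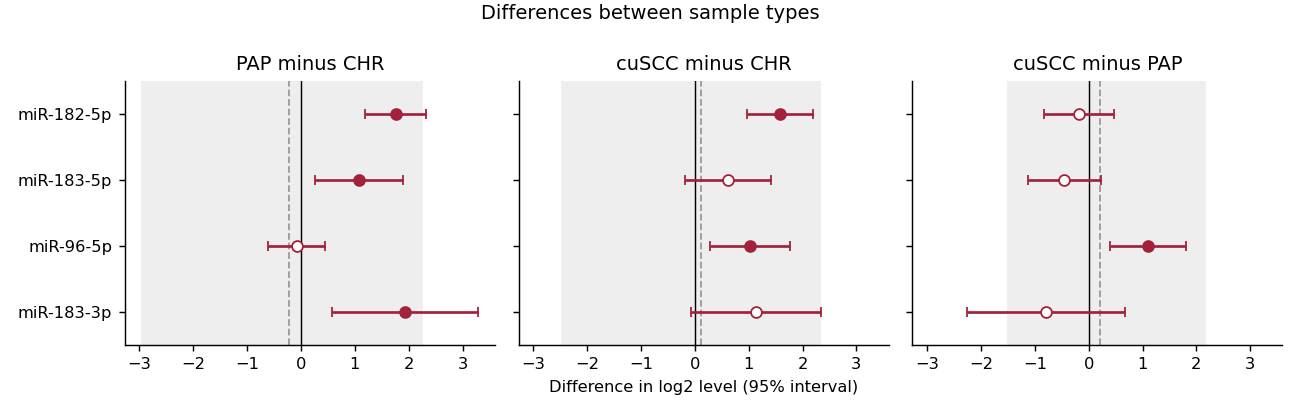
Differences in log2 level between sample types for the 3 members and miR-183-3p, with 95% intervals from limma and filled symbols where the adjusted p was under 0.05. Grey bands span the 5th to 95th percentile and dashed lines mark the median of all 293 tested microRNAs. miR-182-5p lies at 1.76 and 1.59 against CHR, and every interval of a filled symbol stays above 0. The filled symbols of miR-96-5p are a description, since it entered the test through its cuSCC libraries.

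The cluster was set beside 7 microRNAs of epithelium, namely the miR-200 family, which maintains epithelial identity, with miR-203-3p and miR-205-5p. All 7 were tested. Between PAP and CHR 4 of them were higher and 0 lower, with a median difference of 1.24 against -0.23 over all tested microRNAs, and miR-429-3p rose by 1.87 (limma adjusted p = 0.00575). Between cuSCC and CHR 3 were higher and 0 lower, with a median of 0.88 against 0.11, among them miR-141-3p, which rose by 1.72 (limma adjusted p = 0.0165). Between cuSCC and PAP 0 were higher and miR-200c-3p alone was lower, by -1.45 (limma adjusted p = 0.0319), a call that was lost in the paired fit. In the paired fit 3 were higher in PAP than in CHR and 2 in cuSCC, without miR-200b-3p in PAP (limma adjusted p = 0.105) and without miR-429-3p in cuSCC (limma adjusted p = 0.0535). The summed level of the 7 was 17.50 to 18.51 for CHR, 17.77 to 18.55 for PAP and 17.50 to 18.54 for cuSCC, and miR-205-5p made up most of it.
In these comparisons 14% of all tested microRNAs were higher and 18.4% lower in PAP than in CHR. In cuSCC 20.1% were higher and 22.2% lower than in CHR, and 9.22% were higher and 2.39% lower than in PAP. In the paired fit 77 of the 293 passed between PAP and CHR and 110 between cuSCC and CHR, in either direction.
Of 17 microRNAs often raised in carcinoma, 13 were tested. In PAP 6 were higher and 1 lower than in CHR (median difference 1.26), and in cuSCC 10 were higher and 1 lower (median 1.67). These counts moved with the treatment of undetected values. With the lowest detected level of each library in their place, 9 were higher in PAP (median 1.53) and 8 in cuSCC (median 1.12), so that the order of the lesions turned round. miR-19b-3p and miR-224-5p, each detected in 8 libraries, were then called in PAP and no longer in cuSCC. In the paired fit 9 were higher in cuSCC, without miR-25-3p.
The difference of miR-182-5p in PAP lay below those of miR-31-5p, which promotes keratinocyte growth, at 3.21, and the hypoxia microRNA miR-210-3p, at 3.17. miR-222-3p was the member that was lower in both lesions, by -1.67 in PAP (limma adjusted p = 0.000677) and -1.45 in cuSCC (limma adjusted p = 0.00233). Between cuSCC and PAP 1 was higher and 0 lower, namely miR-21a-5p, whose call was also lost in the paired fit.
Of the sensory and neuroendocrine microRNAs, miR-124-3p, miR-9-3p and miR-7b-5p were at the lowest value in all libraries, and miR-9-5p and miR-7a-5p were detected in 1 and 2 libraries. miR-375-3p, which is known from Merkel and endocrine cells, was the member tested and did not pass in the unpaired comparisons of all mice (limma adjusted p = 0.137 to 0.714). It was lower in cuSCC than in PAP, by -2.82, with undetected values at the lowest detected level of the library (limma adjusted p = 0.035), and lower than in CHR, by -1.77, without mouse 10 (limma adjusted p = 0.0236). Its level was 6.53 ± 0.67 in CHR, 7.16 ± 3.22 in PAP and 5.26 ± 1.71 in cuSCC (SD, n = 6).

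Markers of other cell types moved with the sample types. Of the skeletal muscle microRNAs, 3 of 3 tested were lower in PAP than in CHR and 1 in cuSCC, and their summed level ranged from 15.44 to 15.98 for CHR, 5.16 to 14.24 for cuSCC and 4.95 to 12.44 for the 3 PAP libraries with any, while the PAP of the other 3 mice had none detected. miR-133b-3p and miR-206-3p were at the lowest value in all 6 PAP libraries, and with undetected values at the lowest detected level of the library miR-133a-3p alone was lower in PAP, with a median difference of -1.05 instead of -3.22. Their counterparts of fibroblasts and smooth muscle were lower in PAP for 3 of 5 tested and in cuSCC for 1 of 5, with summed levels of 14.30 to 15.06 for CHR, 11.001 to 14.04 for PAP and 12.53 to 15.51 for cuSCC. With undetected values at the lowest detected level 5 of 5 were lower in PAP, and without mouse 10 cuSCC had 2 higher and 1 lower than CHR. Leukocyte microRNAs were lower for 2 of 4 tested in PAP, and in cuSCC 2 were lower and 1, miR-142-5p, was higher, with summed levels of 13.12 to 14.28, 8.95 to 11.82 and 11.13 to 12.59. Both endothelial miR-126 arms were higher in cuSCC than in CHR, and neither passed in PAP, with summed levels of 7.84 to 9.35, 7.53 to 9.004 and 9.26 to 11.17. Of the erythroid microRNAs miR-144-3p was at the lowest value in all libraries, while miR-451a was higher in both lesions and miR-486-5p was lower in cuSCC, with summed levels of 16.69 to 17.84, 16.70 to 18.24 and 14.86 to 17.87. Between cuSCC and PAP, where 9.22% of all tested microRNAs were higher, 3 of 3 tested skeletal muscle microRNAs were higher in cuSCC. So were 2 of 2 endothelial, 2 of 5 fibroblast and smooth muscle and 1 of 4 leukocyte microRNAs. Of 2 erythroid microRNAs tested 1 was lower. With undetected values at the lowest detected level 1 of the 3 skeletal muscle microRNAs passed, and in the paired fit 1 of the 2 endothelial arms. The part of these shifts in the differences of the cluster was not tested.

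**Figure D5:**
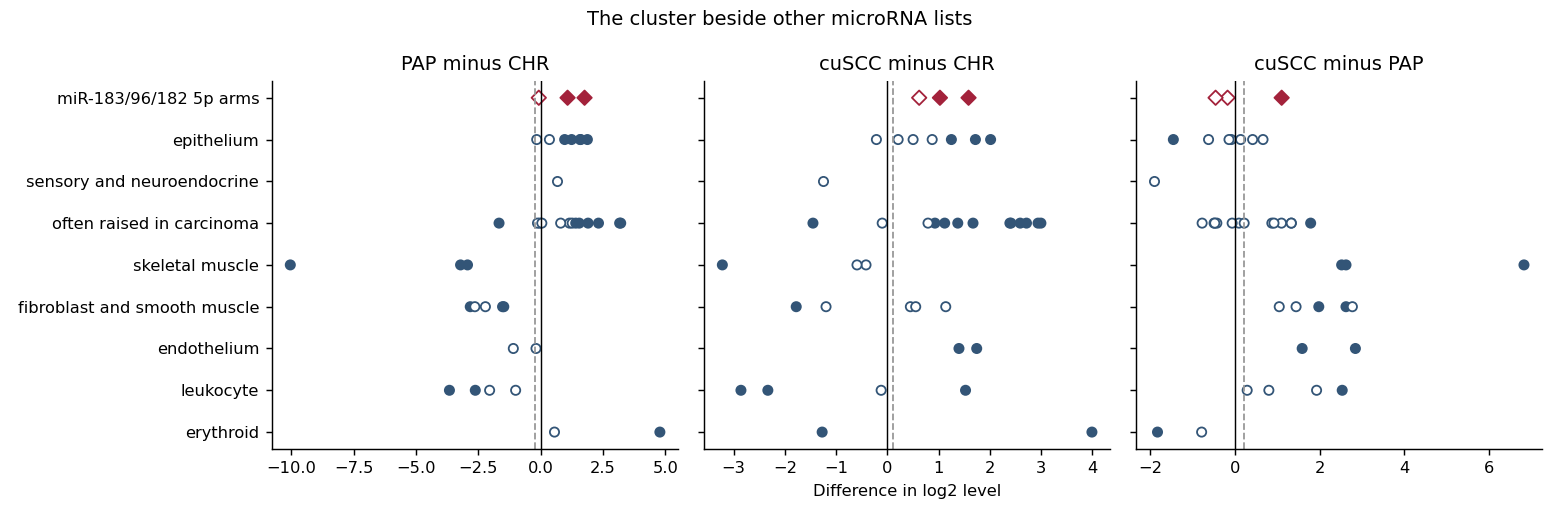
Differences in log2 level between sample types for the 3 members (red diamonds) and for the tested microRNAs of each list (blue circles), filled where the limma adjusted p was under 0.05, with the dashed line at the median of all 293 tested microRNAs. The horizontal ranges differ between panels. In PAP minus CHR the members lie within the range of the epithelial microRNAs, -0.16 to 1.87. The tested skeletal muscle microRNAs lie there at -2.94 to -10.04, or at -0.77 to -8.55 with undetected values at the lowest detected level of the library. Other lists overlap the members too. In cuSCC minus CHR the endothelial arms, at 1.40 and 1.74, lie on either side of miR-182-5p. In cuSCC minus PAP miR-96-5p, at 1.10, lies above every epithelial microRNA (highest 0.66).

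The microRNAs most like each member were read from Pearson correlations over the 18 libraries among those tested, as a description. For miR-182-5p these were miR-17-5p (r = 0.92), miR-210-3p (r = 0.88), miR-31-5p (r = 0.87), miR-92a-1-5p (r = 0.86) and miR-28a-5p (r = 0.85). Each of these 5 was higher than in CHR in both lesions, against 14% of all tested microRNAs higher in PAP and 20.1% in cuSCC. Picking them by correlation across sample types that miR-182-5p separates largely set this, so it is no support. miR-17-5p and miR-92a-1-5p come from the same miR-17~92 cluster. With each sample type set to its own mean, miR-17-5p still correlated with miR-182-5p at r = 0.65, whereas miR-210-3p did so at 0.27.
For miR-183-5p the nearest were miR-451a (r = 0.71), an erythroid microRNA, miR-361-5p (r = 0.66), miR-138-5p (r = 0.64), miR-24-3p (r = 0.63) and miR-93-5p (r = 0.61). For miR-96-5p, at the lowest value in 11 libraries, they were miR-1843a-5p (r = 0.77), miR-22-3p (r = 0.72), miR-872-5p and miR-203-3p (r = 0.70 for both) and miR-126-5p (r = 0.69). None of these lists of 5 held a microRNA of another member's list.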

How the data were processed

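Small RNA was sequenced from CHR, PAP and cuSCC of 6 mice. Per the study's methods, the authors removed adapter sequence, dropped reads that were too short or ended in a homopolymer, searched miRBase for the remainder by BLAST, and scaled each microRNA to ppm of the usable reads. The values were deposited as log2 of that ppm, quantile normalized with a lowest value of 3.32, and both steps were read from the values. The submitters' processing notes name the build mm10.

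Deposited log2 values were compared between 2 sample types at a time by limma (version 3.58.1, lmFit and eBayes, two-sided, without a block; R 4.3.3). Of 1251 entries 293 were tested. The difference between miR-182-5p and miR-183-5p was tested with an exact permutation test in Python 3.11.15 (numpy 2.4.6, pandas 2.3.3), and plots used matplotlib 3.10.9. Only the limma fit was tested on simulated data, namely normal values for PAP and CHR with no lowest value set. Where read depth is unknown, no counting interval is given.

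Sequences come from RefSeq (GRCm38.p6). All 3 members matched by name, as did 1001 of the 1251 entries. Named microRNAs were the members, opposite arms, seed relatives, the 5 nearest patterns of each member, and listed microRNAs that were called or lie at the ends of a list. Members and lists were chosen with earlier results of these data known.

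The labels number the mice, and samples of the same mouse are paired. Deviations of the samples of a mouse from their type means correlated on average at 0.03 (PAP with CHR), -0.07 (cuSCC with CHR) and 0.06 (cuSCC with PAP). Alternatives are given in the closing section. Each type was represented by a single library per mouse, and p-values measure the spread between mice of a single litter.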

Additional observations from a re-analysis of the deposited data

Results flagged for a closer look

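Of 9 groups of 6 libraries in which every value was detected, 3 had a highest or lowest sample that stood apart by Dixon's criterion. Several values of miR-182-5p are tied, at 15.14 in CHR and at 16.80 in the lesions. The groups of miR-182-5p minus miR-183-5p reuse the values of the other groups. No share expected by chance can therefore be set against these 3. A further 3 such samples came from 6 partly detected groups, where values tied at the lowest value make the criterion no test, and 6 groups were constant. In CHR, miR-182-5p was lowest in mouse 7, at 14.33 against 15.03 for the next, in a library with 200 detected entries, the fewest of the CHR libraries. miR-183-5p and miR-96-5p were highest in the CHR of mouse 10, at 13.26 against 11.94 and at 4.34 against 3.32. In PAP, miR-96-5p was highest in mouse 8, at 3.88 against 3.32, in the PAP library with the most detected entries, 281. miR-183-3p was lowest in the PAP of mouse 10, at 3.32 against 5.80, in the library with the fewest, 163. The difference between miR-182-5p and miR-183-5p was largest in the PAP of mouse 7, at 5.37 against 3.78. The part of detection in these values was not tested.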

How the results depend on the processing

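The rise of miR-182-5p in PAP kept its direction and passed under all 20 alternatives, at 1.501 to 1.88 with a mouse left out (1.79 without the CHR of mouse 10). Its rise in cuSCC passed in 19 of 20, at 1.495 to 1.79 with a mouse left out, and did not relative to miR-203-3p, at 1.08, the cause of which was not tested. Its difference between cuSCC and PAP ranged from -0.34 to 0.015 with a mouse left out, positive without mouse 2.

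The rise of miR-183-5p in PAP passed in 7 of 20. It did not pass with looser detection filters or the exact permutation test, all at 1.08, which tested more entries or used another test, with 100 ppm as the lowest value (1.08), with libraries centred on the microRNAs detected in all (0.94), which shifted all differences between PAP and CHR by -0.14, relative to miR-205-5p (0.73) or miR-203-3p (1.24), with a mouse left out (0.94 to 1.26, passing without mouse 10) or without the PAP of mouse 10 (0.96). Without the CHR of mouse 10 it was 1.37 and passed. In cuSCC it was 0.42 to 0.85 with a mouse left out, passing without mouse 10, and 0.91 without its CHR. Omitting that CHR, the highest for miR-183-5p, can only raise the difference from CHR.

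miR-96-5p changed with the treatment of undetected values, at 1.24 in PAP minus CHR, 0.28 in cuSCC minus CHR and -0.96 in cuSCC minus PAP, and at 100 ppm it had no variation left. With detection in at least 9 libraries it was not tested. In PAP minus CHR it was -0.20 to 0.11 with a mouse left out and 0.09 without the CHR of mouse 10. Its calls at 1.03 (cuSCC minus CHR) and 1.10 (cuSCC minus PAP) were lost with the exact permutation test, and the latter also with no filter, with mouse as a replicate block and with a trended and robust fit. With a mouse left out they were 0.87 to 1.23 and 0.96 to 1.32, and the latter was 1.03 without the cuSCC and 1.09 without the PAP of mouse 10. miR-182-5p minus miR-183-5p in cuSCC minus CHR was 0.72 to 1.15 with a mouse left out, and passed without mouse 2 or 9.

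Of all tested microRNAs, 95 passed in PAP minus CHR (57 at 100 ppm, 55 to 81 with a mouse or a library of mouse 10 left out), 124 in cuSCC minus CHR (80 at 100 ppm, 77 to 131) and 34 in cuSCC minus PAP. The last was 2 with no filter or at 100 ppm, 80 with undetected values at the lowest detected value, 83 at the study's thresholds (fold change 1.5, unadjusted p under 0.05), 15 without the PAP of mouse 10 and 1 to 59 with a mouse left out (59 without mouse 10, at most 9 without mouse 2, 3, 7, 8 or 9). By the exact permutation test 0 passed (75 at an unadjusted p under 0.05). The replicate block changed no other call of the 3 members, and the cause of these changes was not tested.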
